A study of Mus musculus with 5 samples.

Results

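The kidney fibroblasts described here were the cells that the deposited annotation named Fib, 65 of 14197 cells from 5 single-cell RNA sequencing libraries of adult mouse kidney. All cells with that name were taken, whatever they expressed, and their unique molecular identifier (UMI) counts, 1 per captured mRNA molecule, were read from the deposited matrix of 17389 genes. The libraries came from littermate mice of the FVB/Ant strain that were either wild type (WT) or carried a knockout (KO) of *Fame*, listed in the matrix as *ccdc198*. The knockout was made with CRISPR/Cas9 by placing a double STOP codon after the initiator ATG, so the transcript itself is not removed and its 3′ count does not check the genotype. Of the WT libraries 1 was female and the other held pooled males and females (WT mix), and the KO libraries were female, male and pooled (KO mix). How many mice went into a library is not stated, and each library was treated as 1 sample, with cells never used as replicates.

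Fibroblasts are the cells of the interstitium and of the outer sheath of vessels that make collagen fibres and the proteoglycans that bind them. Fibrillar collagens are built as triple helices from separate chains, folded with the help of the chaperone Serpinh1, trimmed by procollagen proteases outside the cell and spaced by small leucine-rich proteoglycans such as decorin (*Dcn*) and lumican (*Lum*). In the kidney, fibroblasts and the related mural cells lie between tubules and capillaries and are known as the source of scar matrix after injury.

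The proximal promoters of 2 collagen chains and of the collagen chaperone are shown: *Col3a1* was the fibrillar collagen with most UMIs, and *Col1a2* and *Serpinh1* were among the genes with the lowest p between genotypes. Each runs from 250 bases before to 50 after the RefSeq start site on GRCm38.p6, 5′ to 3′ on the strand of the gene. They lie at chr6:4505368-4505667 on the plus strand for *Col1a2*, chr1:45311288-45311587 on the plus strand for *Col3a1* and chr7:99353190-99353489 on the minus strand for *Serpinh1*. Capitals mark matches to the CCAAT box, to the TATA box letters TATAAA, and to the GC box letters GGGCGG, searched on both strands.
Col1a2: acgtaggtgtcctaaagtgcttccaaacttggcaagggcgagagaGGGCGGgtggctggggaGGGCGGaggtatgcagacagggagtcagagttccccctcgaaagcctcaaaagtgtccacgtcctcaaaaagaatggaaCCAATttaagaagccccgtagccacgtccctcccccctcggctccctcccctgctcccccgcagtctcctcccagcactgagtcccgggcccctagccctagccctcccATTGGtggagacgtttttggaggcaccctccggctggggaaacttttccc
Col3a1: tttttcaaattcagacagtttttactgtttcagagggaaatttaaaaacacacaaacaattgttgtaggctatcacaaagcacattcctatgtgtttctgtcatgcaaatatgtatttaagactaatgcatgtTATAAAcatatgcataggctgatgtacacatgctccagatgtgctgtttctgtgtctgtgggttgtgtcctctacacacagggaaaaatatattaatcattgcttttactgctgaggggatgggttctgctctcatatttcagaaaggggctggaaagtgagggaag
Serpinh1: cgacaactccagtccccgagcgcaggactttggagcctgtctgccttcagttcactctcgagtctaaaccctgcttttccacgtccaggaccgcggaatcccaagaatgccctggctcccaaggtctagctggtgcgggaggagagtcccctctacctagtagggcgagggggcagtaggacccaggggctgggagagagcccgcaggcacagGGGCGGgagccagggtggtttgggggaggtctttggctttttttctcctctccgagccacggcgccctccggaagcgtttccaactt
The *Col1a2* window held 2 CCAAT matches and 2 GGGCGG matches, the *Col3a1* window 1 TATAAA match, and the *Serpinh1* window 1 GGGCGG match, with no overlap between motifs. Of the 32851 windows of 300 bases in the table, 37.4% held CCAAT, 13.6% TATAAA and 35.7% GGGCGG. These matches describe the letters only.

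The markers of the label were present in most of the cells. *Dcn* was detected in 57 of 65 cells (87.7%, exact binomial 95% interval 77.2 to 94.5%) and *Col1a1*, a chain of type I collagen, in 41 (63.1%, 50.2 to 74.7%). Glomerular endothelial cells (GL endo), which should lack both, held a *Dcn* UMI in 0.745% and a *Col1a1* UMI in 0.106% of 940 cells, at a median depth of 1679.5 UMIs per cell against 2067 in Fib cells. In red blood cells (RBC) *Dcn* was found in 0.687% of 873 cells and *Col1a1* in 0, which allows a share of up to 0.422% by the exact interval. With each cell thinned to 1000 UMIs, which left out no cell, the Fib shares were 75.4% for *Dcn* and 43.1% for *Col1a1*. All of these intervals cover counting error only.

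Of the other fibroblast markers, the second type I chain *Col1a2* was detected in 51 cells, the type III chain *Col3a1* in 54, *Lum* in 25, the platelet-derived growth factor receptor *Pdgfra* in 24 and the matrix protein gene *Dpt* in 16. *Dcn* and *Col1a1* were found together in 39 cells, *Dcn* alone of the pair in 18, *Col1a1* alone in 2, and neither in 6. At least 3 of the 7 markers were seen in 54 cells, all 7 in 5 cells, and none in 2 cells, 1 of WT mix and 1 of KO female. On the deposited map the 65 cells stood apart from the rest: the 15 nearest neighbours of every Fib cell were Fib cells, and no cell of another type lay in the rectangle that enclosed them. The study made the clusters and the map from the same counts, so this separation is a description and no separate evidence for the label.

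The libraries differed in how many fibroblasts they held. WT female had 22 Fib cells with 110510 UMIs, WT mix 16 with 29012, KO female 3 with 7237, KO male 3 with 21310 and KO mix 21 with 43730. The KO female and KO male values thus rest on 3 cells each, and their deepest cells gave 50.8% and 64.5% of their UMIs. Only 1 of the 3 KO female cells held 3 or more fibroblast marker UMIs, with 13 UMIs, and of the others 1 held 39 UMIs of the Schwann cell markers and 1 held 1702 haemoglobin UMIs among its 3677. In WT female a cell of 26517 UMIs gave 24.0%. Levels are given as CPM, counts scaled to the same total of UMIs in the Fib cells of every library, where 1 UMI is worth 9.05 CPM in WT female and 138 in KO female. Each UMI is a 3′ end, so a level is not divided by transcript length. The median share of mitochondrial UMIs per Fib cell was 14.7% for WT mix and 13.3% for KO mix, both annotated as run 3, against 3.92 to 5.84% in the 3 libraries of run 2.

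The 20 leading genes of the Fib cells were those with the highest ratio of the pooled Fib level to the level in any other annotated type. They were led by secreted and matrix genes. Since the clusters were made from the same counts, these levels are a description with no test. *Lum* had 99 UMIs in 25 Fib cells. The elastic fibre genes *Fbln1*, *Mfap5* and *Mfap4* had 72, 79 and 25 UMIs, and the plasminogen-binding protein gene *Clec3b* had 139. The same group held *Dcn*, *Col1a1* and *Dpt*, the metalloproteinase inhibitor *Timp1* with 70 UMIs in 15 cells, the retinol carrier *Rbp4* with 44 in 10, the matrix genes *Smoc2* and *Olfml3* with 60 and 29, the growth factor binding protein gene *Igfbp6* with 365, and the adhesion receptor *Adgrd1* with 23.

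Other leading genes came from few cells. *Msln*, *Lrrn4*, *Muc16* and *Slpi*, genes of the mesothelium or of secretory epithelia, were seen in 6, 5, 3 and 9 cells. *Slpi*, a protease inhibitor, held 1101 UMIs, 478 of them in a single cell. The reductase gene *Akr1cl* had 73 UMIs in 5 cells, all of WT female.

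**Figure D1:**
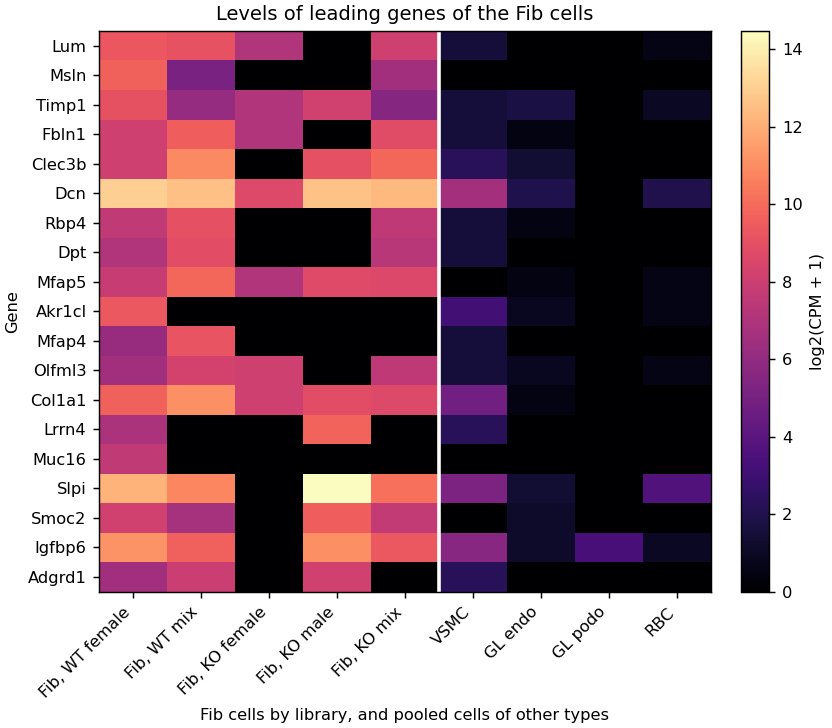
Rows are leading genes of the Fib cells, columns are the Fib cells of each library and, right of the white line, the pooled cells of 4 other types, and the colour is log2(CPM + 1). *Dcn* ranged from 415 CPM in KO female to 8406 in WT female and was at 97.7 CPM in vascular smooth muscle cells (VSMC), while *Akr1cl* was seen only in WT female among the Fib columns.

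The mesothelial genes marked a set of cells within the cluster. In all, 8 of 65 Fib cells held 3 or more UMIs of *Msln*, *Upk3b* and *Lrrn4*, and the other 57 held none. They came from WT female (3 cells), WT mix (1), KO male (2) and KO mix (2), and lay together at 1 end of the group on the map, at a first coordinate of -8.46 to -8.30. The first coordinate of the other 57 cells ran from -8.36 to -7.53, so the ranges overlapped. All 8 also held *Dcn*, with 709 UMIs (10480.1 CPM against 5272 in the other 57), and 5 held *Col1a1* (251 against 1165 CPM). *Lum* and *Dpt* were at 0 UMIs in the 8 cells and at 99 and 36 in the 57. *Slpi* was nearly confined to the 8 cells, with 1100 of its 1101 UMIs there. The complement gene *C3* stood at 8322 against 805 CPM, the chemerin gene *Rarres2* at 7997 against 839, and *Igfbp6* at 4627 against 361. This split was made after the values were seen and has no test, and no name is given to the 8 cells. Their median depth was 5333.5 UMIs, against 1832 in the rest, and they gave 67652 of the 211799 Fib UMIs.

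Markers of further cell types differed in how widely they were found. The proximal tubule list had 1446 UMIs, with 3 or more in 57 of 65 cells and at most 181 in a cell, and 27 cells held more of them than of the fibroblast markers. Haemoglobin had 7651 UMIs in 30 cells. The other lists were sparse or came from single cells. Of the mural markers, *Tagln*, a smooth muscle actin-binding protein gene, had 181 UMIs and *Acta2*, smooth muscle actin, 113; *Cspg4* was at 0, and the pericyte gene *Rgs5* had 7 UMIs in 2 cells. In 3 of 65 cells there were 20 or more mural UMIs, at most 193 in a WT female cell. These also held *Dcn* and *Col1a1*. Of the Schwann cell markers, 47 UMIs in all, 39 lay in a KO female cell that held none of the 7 fibroblast markers. The myeloid list had 62 UMIs in 6 cells, the endothelial list 56 UMIs with at most 9 in a cell, and the podocyte list 1 UMI. The T and NK cell markers *Cd3e* and *Nkg7*, the mesangial gene *Gata3* and the renin cell gene *Akr1b7* were at 0. The proximal tubule genes *Kap* and *Gpx3* were found in 70.8% and 89.2% of Fib cells, against 79.1% and 87.0% of GL endo cells. As a sum the list stood at 6827 CPM in Fib cells against 10572 in VSMC, 9578 in GL endo and 6899 in GL podo. Whether free RNA or doublets gave these UMIs was not tested.

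Haemoglobin separated the libraries by run. The 3 haemoglobin genes of the red blood cell list summed to 50529 and 34.5 CPM in WT female and WT mix, and 239188, 15673 and 22.9 CPM in KO female, KO male and KO mix. The 3 libraries of run 2 lay far above both libraries of run 3, as they did over all cells of a library (17301 to 45253 against 712 to 2369 CPM). Over 1000 haemoglobin UMIs were held by 4 Fib cells, 3 of WT female and 1 of KO female. The part of this RNA in the levels of other genes was not tested, except that the genotype test is also given without haemoglobin and mitochondrial genes.

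**Figure D2:**
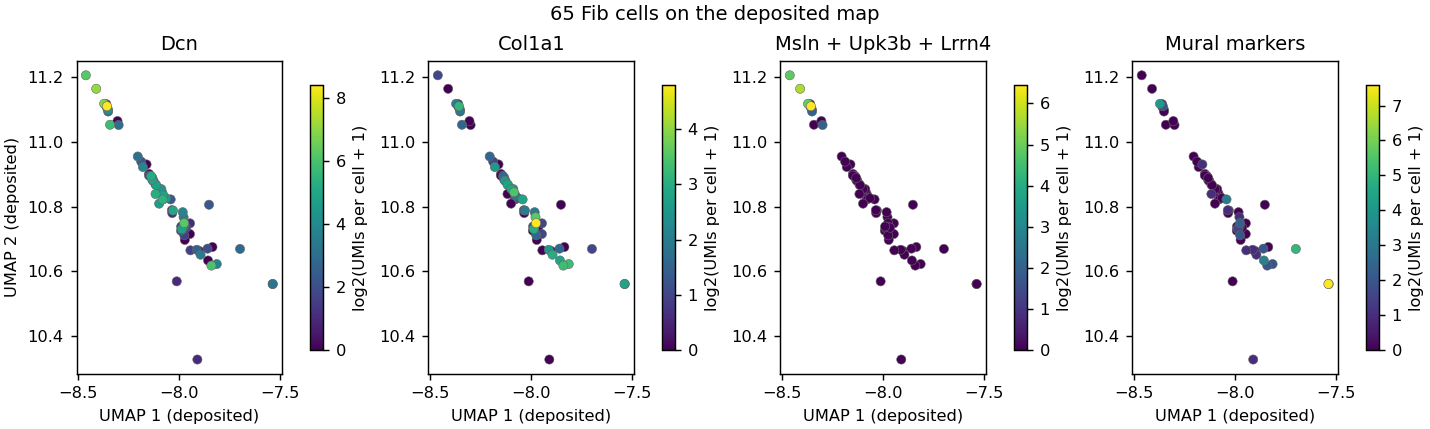
Each point is 1 of the 65 Fib cells at its coordinates on the deposited UMAP, which have no unit, coloured by log2(UMIs + 1) of *Dcn*, *Col1a1*, 3 mesothelial markers and the mural markers with a UMI. *Dcn* runs along the whole group, the 8 cells with mesothelial markers lie at its upper left end, and the cell with 193 mural UMIs lies at the lower right.

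Among fibrillar collagens, 8 of 10 genes in the matrix had a UMI in Fib cells, and *Col11a2* and *Col24a1* had none. *Col3a1* stood at 1900.3 and 3860.5 CPM in WT female and WT mix, and 691, 2722 and 1464 CPM in KO female, KO male and KO mix. The KO male value came from 2 cells with mesothelial markers, with 56 and 2 UMIs, and its remaining cell held 0. *Col1a2* stood at 1213 and 3171 CPM in WT female and WT mix, and 276, 422 and 1052 CPM in KO female, KO male and KO mix. *Col1a1* stood at 823 and 2206 CPM in WT female and WT mix, and 276, 469 and 412 CPM in KO female, KO male and KO mix. Each of the 3 chains was highest in WT mix and lowest in KO female, and for *Col1a1* and *Col1a2* every KO library lay below both WT libraries by CPM, as in 14.5% of the 413 genes tested between genotypes. The KO female values of *Col1a1* and *Col1a2* are 2 UMIs each, under the floor of 3 counts, which is 415 CPM there. With the libraries scaled as in the edgeR fit, *Col1a1* still did not overlap, but *Col1a2* did, since KO mix came above WT female. The type V chains, which regulate fibril diameter, had 47 (*Col5a2*) and 23 UMIs (*Col5a1*).

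Of the other collagens, 17 of 22 had a UMI. The beaded-filament chains *Col6a1*, *Col6a2* and *Col6a3* had 81, 41 and 39 UMIs, and the fibril-associated *Col14a1* 54, with 2.85 CPM in GL endo against 255 in Fib cells. The basement membrane chains *Col4a1* and *Col4a2* were also present, at 429.7 and 269 CPM, and parietal epithelium (PE) was higher for *Col4a1* at 579.9 CPM. Laminins and nidogens were sparse: 11 of 15 had a UMI, led by *Nid1* with 61 and *Lamb1* with 33, while *Lama1*, *Lama3* and *Lamb3* were among those with none. *Lama2*, the laminin chain of muscle and stroma, was found in 22 cells but never with more than 2 UMIs in a cell.

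The small leucine-rich proteoglycans were seen for all 9 genes in the matrix. *Dcn* stood at 8406 and 6169.9 CPM in WT female and WT mix, and 415, 6241 and 5145 CPM in KO female, KO male and KO mix. The KO female value rests on 3 UMIs, and the other 4 libraries lay between 5145 and 8406 CPM with the genotypes overlapping. Much of *Dcn* in 2 of these came from cells with mesothelial markers. In KO male 116 and 7 of its 133 *Dcn* UMIs lay in 2 such cells, and the remaining cell held 10. In WT female 74, 344 and 135 of its 929 lay in 3 such cells. Osteoglycin, *Ogn*, stood at 869 and 1206 CPM in WT female and WT mix, and 829, 845 and 709 CPM in KO female, KO male and KO mix, and the genotypes overlapped once the libraries were scaled as in the edgeR fit, with every KO library above WT female. Biglycan, *Bgn*, with 139 UMIs in 41 cells, was lowest in the KO female and WT female libraries and highest in both mixed ones.

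Matrix glycoproteins were the largest list by UMIs among those of the matrix, with 3109 UMIs and 29 of 30 members seen. The calcification inhibitor *Mgp* stood at 2208 and 16648 CPM in WT female and WT mix, and 4559.9, 1783 and 7478 CPM in KO female, KO male and KO mix, and the mixed libraries were the highest. The collagen-binding *Sparc* was found in 61 cells, fibulin 5 (*Fbln5*), an elastic fibre protein, in 20, and *Efemp1*, another fibulin, in 21. *Fbln5* reached 1418 CPM in KO mix and 793 in WT mix, against 63.3 to 188 in the libraries of run 2. Fibronectin, *Fn1*, had 88 UMIs, none of them in KO male.

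The collagen-processing genes were broadly present, with 25 of 26 members seen. The proline isomerase *Ppib* was found in 50 cells and the collagen chaperone *Serpinh1* in 34. *Serpinh1* stood at 516 and 689 CPM in WT female and WT mix, and 138, 188 and 229 CPM in KO female, KO male and KO mix, so that every KO library lay below both WT libraries, as they also did with the scaling of the fit. The KO female value is 1 UMI, under the floor of 3 counts. The procollagen protease enhancer *Pcolce* stood at 271 and 241 CPM in WT female and WT mix, and 276, 282 and 274 CPM in KO female, KO male and KO mix, so that by CPM every KO library lay above both WT libraries, though the nearest pair differed by less than 1 UMI is worth. The crosslinking oxidase *Lox* had 21 UMIs. Of proteases and their inhibitors, 23 of 24 were seen: the complement C1 inhibitor *Serping1* in 53 cells, *Timp2* in 47, *Timp3* in 32 and the gelatinase *Mmp2* in 19. *Timp1* came mainly from WT female, with 59 of 70 UMIs.

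The insulin-like growth factor list summed to 6027 and 8721 CPM in WT female and WT mix, and 967, 7602 and 10405 CPM in KO female, KO male and KO mix, with KO female far below the others and the genotypes overlapping. Its UMIs came mostly from the binding proteins *Igfbp7* (410), *Igfbp5* (367), *Igfbp6* (365), *Igfbp4* (148) and *Igfbp3* (127), with 86 for the growth factor *Igf1* itself and 0 for *Igfbp2*. *Igfbp3* had 94 of its UMIs in KO mix.

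For the platelet-derived and fibroblast growth factors, 16 of 18 genes had a UMI, led by *Pdgfra* (42) and *Pdgfrb* (20), while the ligand *Pdgfb* was at 0. *Fgf7*, a ligand that stroma makes for epithelium, had 9 UMIs. Of 29 genes of the TGF-beta and BMP list, 28 had a UMI, led by the BMP target *Id3* (88), the antagonist *Fstl1* (63), the receptor *Tgfbr2* (39) and the ligand *Bmp4* (22). In the Wnt and hedgehog list, 20 of 25 had a UMI, led by *Gas1*, a co-receptor for hedgehog, with 103. The Wnt antagonist *Sfrp1* had 26, and the Wnt agonist *Rspo1* had 25, of which 22 lay in WT female.

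The complement list had 16 of 24 members with a UMI. It summed to 6398 and 8066 CPM in WT female and WT mix, and 2764, 15908 and 5603 CPM in KO female, KO male and KO mix, highest in KO male. *C3*, the central component, was found in 30 cells. *C3* stood at 3357 and 2275 CPM in WT female and WT mix, and 0, 9151 and 1075 CPM in KO female, KO male and KO mix. In KO male 184 of its 195 UMIs were in 1 cell, which was among the 8 with mesothelial markers. Of the chemokines, *Cxcl12* was found in 32 cells and *Ccl11*, an attractant of eosinophils, in 18. Both were highest in KO mix, at 1464 and 1006 CPM against 586 and 276 in WT mix. *Ccl19*, a lymphoid stromal chemokine, had 18 UMIs in 5 cells, all of the mixed libraries, whereas the inflammatory *Ccl2*, *Ccl5* and *Ccl7* had 0. The alarmin *Il33* was found in 14 cells.

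All 15 genes of the adventitial fibroblast list had a UMI. The actin-severing *Gsn* was found in 38 cells, *Clec3b* in 30, *Cd34* in 24 and *Pi16* in 8. *Clec3b* stood at 281 and 1930.2 CPM in WT female and WT mix, and 0, 516 and 938 CPM in KO female, KO male and KO mix, with the mixed libraries highest. Of the myofibroblast genes, 13 of 15 had a UMI, of which *Postn* had 18 and *Tnc* 10, and *Comp* and *Lrrc15* had none. The genes of cortical peritubular fibroblasts were led by *Igfbp5* with 367 UMIs. *Nt5e*, the ectonucleotidase of cortical fibroblasts, was found in 4 cells. Of the stromal transcription factors, 32 of 33 had a UMI, with *Nfia* in 34 cells, *Nr2f2* in 31, *Ebf1* in 28 and *Tcf21* in 11, and *Gli2* had none.

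Of the retinoid genes, *Aldh1a1*, which makes retinoic acid, was found in 12 cells. The prostacyclin synthase *Ptgis* had 48 UMIs. Receptors for vasoactive hormones were near the limit of detection, with 101 UMIs over 15 of 18 genes, among them 5 for the angiotensin receptor *Agtr1a*. The cell cycle list had 61 UMIs and *Mki67* and *Top2a* had 0. Immediate early genes, which rise within minutes of stress and also with tissue dissociation, were led by *Fos* (166), *Btg2* (123) and *Egr1* (109). The list summed to 5004 and 9306 CPM in WT female and WT mix, and 11745, 1126 and 7866 CPM in KO female, KO male and KO mix, lowest in KO male and highest in KO female.

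Fib cells were set beside VSMC, GL endo and glomerular podocytes (GL podo), from which they differed in the levels of matrix genes. Over 6956 genes above 50 CPM in some type, the correlation of log2(CPM + 1) with pooled Fib cells was highest for VSMC (r = 0.738), GL endo (0.701) and PE (0.693), at 0.626 for GL podo, and lowest for T and NK cells (0.514). These points share dissociation, ambient RNA and gene length, and no p is given. The fibrillar collagen list summed to 4707 CPM in Fib cells against 339.8 in VSMC, 37.5 in GL endo and 88.9 in GL podo. The proteoglycan list was at 9212 against 906 in VSMC, 90.8 in GL endo and 17.8 in GL podo. *Col1a1*, *Col1a2*, *Col3a1*, *Dcn* and *Ogn* were higher in Fib cells than in each of the 3 types in 5 of 5 libraries. The contractile list went the other way, at 2252 CPM in Fib cells and 29882 in VSMC, and *Acta2* and *Tagln* were higher in VSMC in 5 of 5 libraries. The clusters were made from the same counts, so these comparisons between types are a description with no test. In KO female *Col1a1* rests on 2 UMIs and *Dcn* on 3.

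Complement stood at 7295 CPM against 803 in VSMC, 365 in GL endo and 2320.4 in GL podo, with *Serping1* and *Rarres2* higher in Fib cells than in each of the 3 types in 5 of 5 libraries, and *C3* in 4 of 5. Of the *C3* UMIs in Fib cells, 563 lay in the 8 cells with mesothelial markers and 116 in the other 57. For *Rarres2* the numbers were 541 and 121. GL endo exceeded Fib cells for antigen presentation (7178 against 2989 CPM) and for the immediate early genes (13598 against 6025). Some matrix genes were not particular to Fib cells by level: *Igfbp7* was higher in GL podo in 5 of 5 libraries and *Timp3* in GL endo in 5 of 5. Ribosomal protein genes summed to 38008 CPM in Fib cells against 22931 in VSMC, 28477 in GL endo and 19154 in GL podo.

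**Figure D3:**
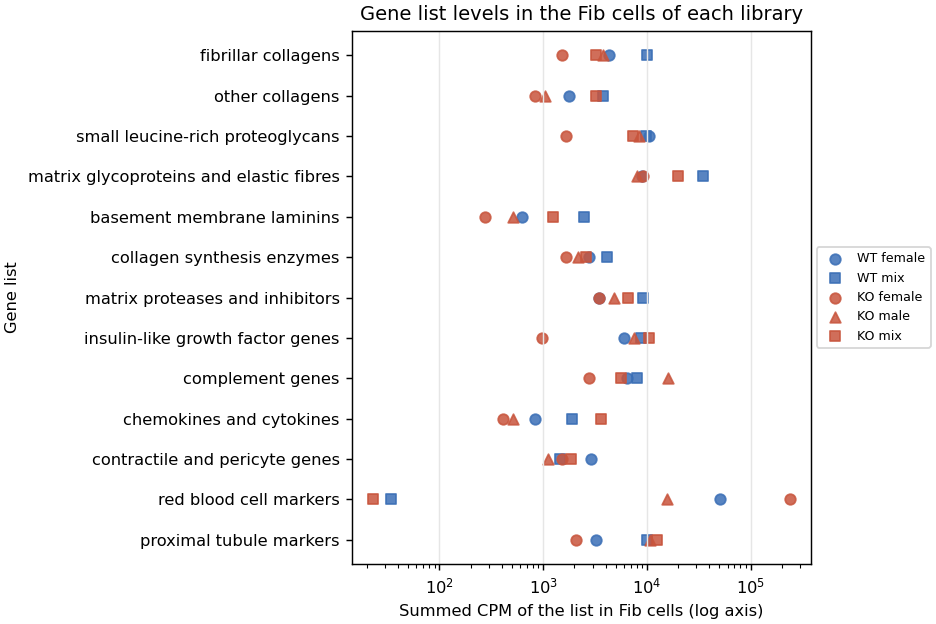
Each row is a gene list, each point the summed CPM of its members in the Fib cells of 1 library on a log axis, blue for WT and red for KO, with circles for female, triangles for male and squares for mixed libraries. Of the rows drawn, fibrillar collagens, proteoglycans and collagen synthesis enzymes have every KO point left of both WT points, which with the scaling of the fit held for proteoglycans only, and the haemoglobin row splits the mixed libraries from the rest.

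*Xist*, transcribed from the inactive X chromosome, was found in 17 of 22 WT female Fib cells, 0 of 16 WT mix cells, 2 of 3 KO female cells, 0 of 3 KO male cells and 9 of 21 KO mix cells. Y-linked genes were found in 4 of 16 Fib cells of WT mix, 4 of 21 of KO mix and 2 of 3 of KO male, and in none of the female libraries. In KO mix 2 Fib cells held both *Xist* and a Y-linked gene. Over all cells, *Xist* was found in 12.4% of those of the WT mix library, against 42.6% for the KO mix library. Genotype and sex cannot be told apart in the pair of mixed libraries.

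Whether the number of Fib cells differed between genotypes was asked over libraries. The share of Fib cells among the WT libraries was 0.867% (WT female, exact binomial 95% interval 0.544 to 1.31%) and 0.477% (WT mix, 0.273 to 0.774%). Among the KO libraries it was 0.102% (KO female, 0.0210 to 0.298%), 0.167% (KO male, 0.0345 to 0.488%) and 0.589% (KO mix, 0.365 to 0.899%). KO female and KO male were the lowest, but KO mix lay between the 2 WT libraries, so the genotypes overlapped. The mean was 0.672 ± 0.276% in WT (SD, n = 2) and 0.286 ± 0.264% in KO (SD, n = 3). The edgeR quasi-likelihood fit of cell numbers gave a log2 fold change of -1.17 (SE 1.08, adjusted p = 0.932 over 19 types), and the exact two-sided permutation test gave p = 0.3, where 0.1 is the smallest this design allows. In run 3 KO mix was above WT mix and in run 2 both KO libraries were below WT female, so the direction differed between runs. At this depth no difference was detectable, and fewer fibroblasts in the tissue and fewer released by dissociation cannot be told apart.

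**Figure D4:**
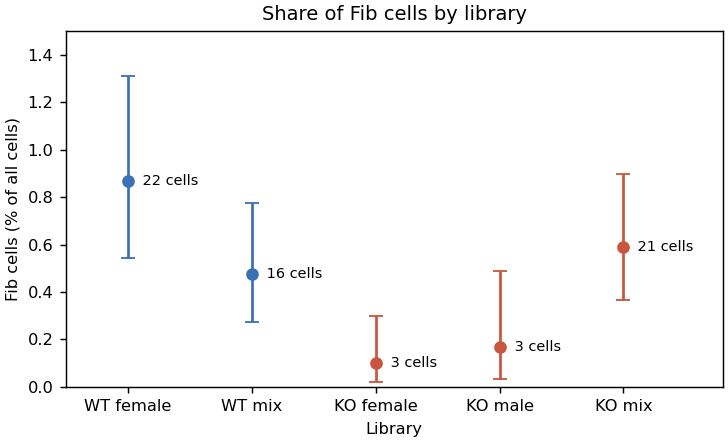
Points are the Fib share of all cells in each library, in percent, blue for WT and red for KO, with exact binomial 95% intervals and the number of Fib cells beside each. KO mix, at 0.589%, lies between WT mix and WT female, while KO female and KO male lie below both.

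Whether transcription under the Fib label differed between genotypes was tested on counts summed over the Fib cells of each library, with edgeR's quasi-likelihood test. The libraries also differed in the cells under that label. In KO male 2 of 3 cells, with 13745 and 5100 of its 21310 UMIs, held mesothelial markers, against 3 of 22 in WT female. Of 413 genes with enough counts, 0 passed an adjusted p of 0.05, which is 0% of those tested. There was 1 gene, or 0.242%, with an unadjusted p under 0.05 with edgeR, against 3 with DESeq2 and 13 with limma-voom, and neither of those tools called a gene after adjustment. The smallest adjusted p was 0.997. The 5 lowest unadjusted p belonged to *Col1a1*, *Tmem176a*, *Cyp2e1*, *Col1a2* and *Serpinh1*. The other tested members of the collagen and collagen synthesis lists were *Col6a1*, *Col3a1*, *Col4a2*, *Ppib* and *Col4a1*. Their log2 fold changes were -1.25, -0.62, -0.40, -0.02 and 0.002, in that order.

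*Col1a1* averaged 1515 ± 978 in WT (SD, n = 2) and 386 ± 99.0 in KO (SD, n = 3) CPM, a log2 fold change of -1.72 (SE 0.65, edgeR unadjusted p = 0.0330, adjusted p = 0.997). *Col1a2* averaged 2192 ± 1385 in WT (SD, n = 2) and 584 ± 412 in KO (SD, n = 3), with a log2 fold change of -1.59 (SE 0.70). *Serpinh1* averaged 603 ± 123 in WT (SD, n = 2) and 185 ± 45.3 in KO (SD, n = 3), with a log2 fold change of -1.38 (SE 0.61). By CPM every KO library was below both WT libraries in all 3 genes, which held for 14.5% of the 413 genes, against 1.45% with every KO library above. Those shares depend on the scaling: on the levels of the fit, which divides by the UMIs of the tested genes and the TMM factor, they were 8.47% and 3.63%. *Col1a1* and *Serpinh1* were among the 35 genes that were lower on those levels, and *Col1a2* was not. *Col3a1* and *Dcn* had log2 fold changes of -0.62 (SE 0.65) and -0.68 (SE 1.01), both smaller than their errors. The *Col1a1* estimate was -0.82 without WT mix, -1.04 without the cells with mesothelial markers and -0.35 without cells holding 3 or more mesothelial, Schwann or mural UMIs. The last of these leaves no KO female cell and 1 KO male cell, of 2465 UMIs. For *Serpinh1* the last value was -0.23 and for *Col1a2* -0.92, and without WT mix *Col1a2* was at -0.69. Both omissions of cells were chosen after seeing the data.

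Higher in KO by estimate were *Tmem176a*, a membrane protein gene, with 669.6 and 276 CPM in WT female and WT mix, and 1520.0, 1220.1 and 709 CPM in KO female, KO male and KO mix, and *Cyp2e1*, a cytochrome P450. *Cyp2e1* rested on 31 UMIs and stood, among the other types, highest in proximal straight tubule cells at 672 CPM. For both, every KO library was above both WT libraries by CPM, as in 1.45% of the 413 genes, and also on the levels of the fit, as in 3.63%. On the levels of the fit *Cyp2e1* stood at 12.6 in WT female and 230 in WT mix. It stood at 3275, 617 and 285 in KO female, KO male and KO mix. KO mix and WT mix thus differed by less than 1 UMI is worth in WT mix. The log2 fold changes of *Tmem176a* and *Cyp2e1* were 1.52 (SE 0.65) and 3.69 (SE 1.60), with an edgeR adjusted p of 0.997 each.

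By list, none of the tested members passed the test. The fibroblast markers had 5 tested members, all with a log2 fold change below 0 and a median of -1.59, beside a median of -0.02 over the 413 genes. Of the 413 genes, 212 were below 0 and 201 above. The list averaged 15057 ± 2494 in WT (SD, n = 2) and 6879.9 ± 4202 in KO (SD, n = 3) CPM. The ribosomal protein genes had 21 of 24 members below 0 (median -0.32) and the mitochondrially encoded genes 12 of 12 tested members above 0 (median 0.62). The mitochondrial list stood at 60583 and 177547 CPM in WT female and WT mix, and 143430, 116659 and 203659 CPM in KO female, KO male and KO mix. Its genotypes thus overlapped, with WT female lowest. Members of a list vary together within a library. The 5 proximal tubule markers were all above 0 (median 0.39) and the 3 haemoglobin genes too (median 2.27). Their part in the lower estimates of matrix genes was not tested. By CPM, 6 of 43 lists with a gene in the matrix did not overlap between genotypes. Among the 413 single genes, every KO library was below both WT libraries in 14.5% and above both in 1.45%. KO was lower for the fibroblast markers, fibrillar collagens, proteoglycans, collagen synthesis enzymes and heat shock genes, and higher for the cell cycle list, of 61 UMIs. Scaled as in the fit, fibrillar collagens, collagen synthesis enzymes and heat shock genes overlapped, the log2 ratio of KO to WT of the heat shock list changed sign to 0.08, and the ribosomal protein genes did not overlap, with KO lower. The fibroblast marker, fibrillar collagen and proteoglycan lists share genes.

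**Figure D5:**
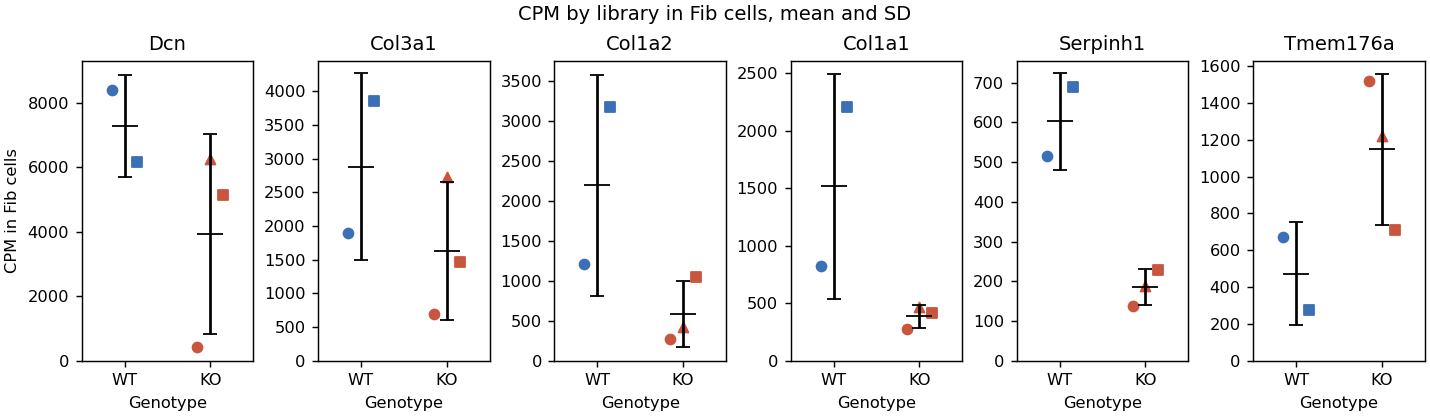
Points are the CPM of each gene in the Fib cells of 1 library, blue for WT and red for KO, with circles for female, triangles for male and squares for mixed libraries, and black marks are means with SD (n = 2 WT, n = 3 KO). For *Col1a1*, *Col1a2* and *Serpinh1* the KO points lie below both WT points, which did not hold for *Col1a2* with the scaling of the fit, and for *Dcn* the KO female point at 415 CPM stands apart from the other KO points.

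*ccdc198* had 1 UMI in 65 Fib cells, in KO male, against 279.8 CPM in loop of Henle cells. The mitochondrial carrier *Slc25a39* had 13 UMIs in as many cells. Ferritin heavy chain, *Fth1*, was found in all 65 cells and stood at 2814 and 6549 CPM in WT female and WT mix, and 7323, 3144 and 6106 CPM in KO female, KO male and KO mix. The genotypes overlapped, and its log2 fold change was 0.51 (SE 0.88, edgeR adjusted p = 0.997). Of 20 iron genes 19 had a UMI, and the transferrin receptor *Tfrc* had none.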

How the data were processed

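Kidney cells were dissociated with collagenase and trypsin and captured with the 10x Genomics 3′ v3 chemistry. By the submitters' processing notes, Cell Ranger 4.0.0 and mm10 were used, and the authors deposited raw counts per gene and cell after removing genes in fewer than 3 cells, cells under 1000 UMIs and cells over 50% mitochondrial UMIs. The deposited annotation, made with Seurat 3.2.2.9001, gives for each cell its type, its library, its run, the percent of mitochondrial UMIs and a Scrublet doublet score. No removal of doublets is stated, and none was done here. The deposited UMAP coordinates, a score with no unit, were used as given. Barcodes shared between libraries numbered 25, with 1 Fib cell among them.

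Members and gene lists were chosen with earlier results of these data known. Counts were summed over the Fib cells of each library and tested with edgeR 4.0.16 (robust quasi-likelihood, TMM, filterByExpr, Benjamini-Hochberg adjustment over all 413 genes). At least 5 Fib cells per library would have left KO with 1 library, so all 5 were kept. Cell numbers were also fitted with edgeR's quasi-likelihood test, without TMM, filterByExpr or the robust option, and with all cells of a library as offset. DESeq2 1.42.0 and limma 3.58.1 (voom) were alternatives. The sources used here do not name the mice of a library, and the spread behind each p-value may be partly technical. The edgeR step was tested on simulated counts. At 413 genes for KO against WT in Fib, it called 0% of genes changed by a fold of 2, 18% at 4, 58% at 8 and 76% at 16. The simulated set held 50 genes at each of these folds and 213 unchanged genes, of which 2 were called. Rates with fewer changed genes were not tested. The named genes were *Col1a1* and *Dcn*, up to 5 members of each list with the highest Fib level, members at 0, the 20 leading genes (at least 20 UMIs, 0.5 counts added), the 5 lowest p-values, and *ccdc198*, *Fth1* and *Slc25a39*. Members named beyond these were chosen after their values were seen. Gene names were matched to GENCODE and promoters to RefSeq (GRCm38). No sequence was printed for *Col1a1* and *Dcn*. Some genes of the lists, 1 leading gene among them, are not reported here.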

Additional observations from a re-analysis of the deposited data

Results flagged for a closer look

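The difference in the share of Fib cells had opposite signs in the 2 pairs of libraries of like sex composition. KO female was 0.765 percentage points below WT female (-0.765), from 22 and 3 cells, and KO mix was 0.112 percentage points above WT mix, from 16 and 21 cells. Each side of each pair is 1 library, so the difference between the pairs was not tested. The pairs also differ in run, in haemoglobin and in mitochondrial share, whose part in this was not tested.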

How the results depend on the processing

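No gene was called by edgeR, DESeq2 or limma-voom under any of the 21 alternatives to the genotype test, which left 322 to 11504 genes tested. The fits with sex composition or run as a replicate block called 0 genes, with 15 and 8 unadjusted p under 0.05 against 1 without a block; the labels do not pair the libraries, so these are checks only. The log2 fold change of the Fib share was -0.95 with sex composition and -1.14 with run as the block, and stayed below 0 under all 13 alternatives. It ran from -2.32 without KO mix to -0.69 without WT female, and the adjusted p was 0.414 or above. The log2 ratio of KO to WT for the fibroblast markers, -1.13, ran from -1.48 without KO male to -0.70 without KO female. Thinning to 1000 UMIs moved the share of cells with *Dcn* to 75.4% and with *Col1a1* to 43.1%, since fewer UMIs are read per cell. The *Fth1* estimate changed sign with no filter (-0.17), without WT female (-0.10, against 1.26 without WT mix) and without cells with mesothelial, Schwann or mural UMIs (-0.15), and the cause was not tested. The alternatives that left out cells by marker, the deepest cells, or haemoglobin and mitochondrial genes were chosen after seeing the data. Leaving out cells with 3 or more mesothelial, Schwann or mural UMIs removed every KO female cell and left 1 KO male cell. The alternative that kept all libraries with any Fib cell is the same fit as the one reported, so its outcome was fixed in advance. With 7237 UMIs, a KO female level under 415 CPM rests on fewer than 3 counts. Scaling the lists as in the edgeR fit, also chosen after seeing the data, gave -0.95 for the fibroblast markers.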
